A study of Mus musculus with 6 samples.

Results

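The ligands and receptors of the VEGF and angiopoietin families were followed in whole uteri at 3.5 dpc. The set held 5 ligand genes, Vegfa, Vegfb, Vegfc, Angpt1 and Angpt2, and 5 receptor genes, Kdr, Flt1, Nrp1, Nrp2 and Tek. Every probe set that the platform annotation gives to 1 of these genes alone was taken, which came to 24 of the 45037 probe sets on the array and 10 of the 18193 genes named there. The ligands had 10 of these probe sets and the receptors had 14. No probe set named a member together with another gene.

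Total RNA from whole uteri was hybridised to Affymetrix mouse expression arrays, with 3 arrays from Arid1a d/d females and 3 from Arid1a f/f females. Arid1a d/d mice carry Pgr cre/+ together with 2 floxed Arid1a alleles. Cre made from the Pgr locus deletes Arid1a in PGR-expressing cells, so that only cells in which that locus was never active should keep the gene. Arid1a f/f mice carry the floxed alleles without Cre. The genotypes thus differ at Pgr as well, and an effect of that allele and loss of Arid1a cannot be told apart here. All females were mated with C57BL/6 males, the morning of the vaginal plug was taken as 0.5 dpc, and no source used here gives their age for the arrays. Whether each sample is a separate mouse is not in the labels, and the p-values therefore cover only the spread among these arrays, which may be technical.

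VEGF ligands are secreted proteins that act mainly on endothelial cells, where KDR carries most of the growth and permeability signal of VEGFA and FLT1 binds the same ligand tightly but signals weakly. Neuropilins, encoded by Nrp1 and Nrp2, are co-receptors that bind VEGF ligands and class 3 semaphorins. ANGPT1, made largely by cells around the vessel, activates TEK and keeps vessels stable, and ANGPT2, released by endothelial cells, can block or weakly mimic it, while in the uterus permeability rises at the site where an embryo attaches and new vessels form in the decidua.

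The deposited intensities are RMA values on a linear scale, and log2 was taken before each test. The median intensity of an array was 3.05 to 3.17 in Arid1a d/d mice and 3.10 to 3.15 in Arid1a f/f mice, and the correlation of any pair of arrays over all probe sets was 0.976 to 0.992. No detection call comes with these values, which leaves low intensities indistinguishable from background, and the median of all intensities, 3.12, is used below only as a mark of a dim probe set. Arid1a, the targeted gene, had intensities of 51.9, 51.9 and 58.2 on the Arid1a d/d arrays, against 83.6, 86.9 and 104 on the Arid1a f/f arrays (log2 fold change -0.76, standard error 0.12, adjusted p = 0.0120, limma). Its other probe set averaged 2.68 in Arid1a d/d mice and 4.09 in Arid1a f/f mice (log2 fold change -0.61, adjusted p = 0.0132, limma). Whether either probe set lies in the deleted part is not known here.

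At 3.5 dpc, 2 of the 5 receptor genes fell in Arid1a d/d uteri, Tek and Kdr, and none of the 5 ligand genes passed the test in either direction. Tek, the angiopoietin receptor, had the larger difference of the 2, with an intensity in Arid1a d/d mice that was 0.432 times that in Arid1a f/f mice, and Kdr, the main VEGFA receptor, stood at 0.706 times. Of Flt1, 1 of 4 probe sets fell too. Ligand genes of these families outside the set, Vegfd and Pgf, also fell (log2 fold change -1.06 and -0.69). Leaving out any single array reduced the count of receptor genes to 0 or 1, since Kdr lost its call without each of the 6 arrays and Tek without Arid1a d/d replicate 3 or any of the 3 Arid1a f/f arrays. The median log2 fold change, Arid1a d/d over Arid1a f/f, was -0.38 over the 5 receptor genes and -0.0042 over the 5 ligand genes, beside -0.019 over all genes. A gene was called by limma at an adjusted p under 0.05 on its brightest probe set by mean over the 6 arrays, and 4.07% of all genes were called lower and 3.37% higher by that rule. These brightest probe sets averaged 5.26 to 16.3 for the ligand genes and 13.0 to 137 for the receptor genes. Whether signal level has a part in the difference between ligands and receptors was not tested. Of 16 endothelial markers in the same RNA 13 fell as well (7 of 16 without Arid1a f/f replicate 3), with a median of -0.94, and in whole tissue fewer cells of a type and less RNA per cell cannot be told apart. The plot of member intensities by array shows the 10 genes.

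**Figure D1:**
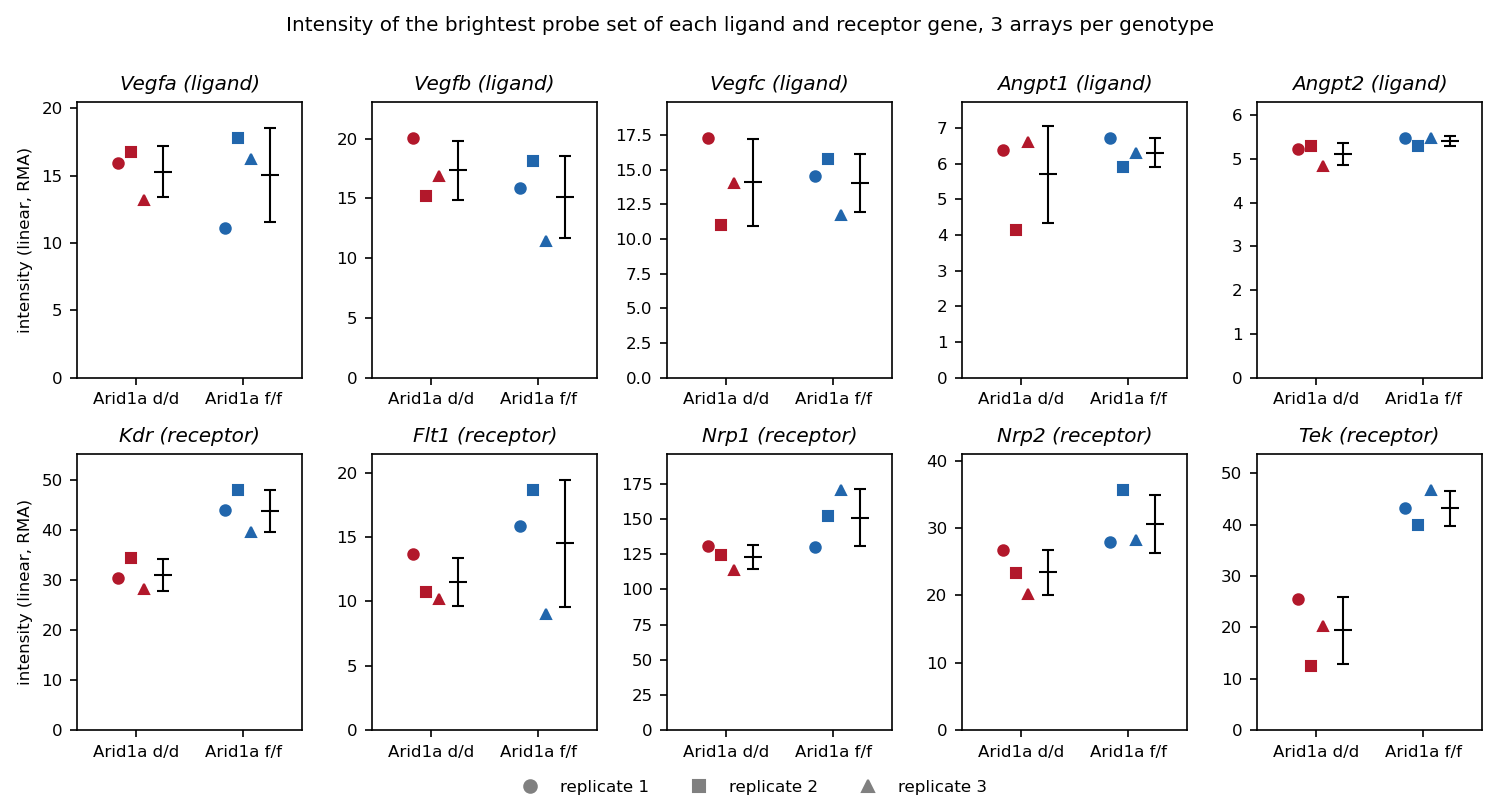
Intensity (linear scale, RMA) of the brightest probe set of each of the 5 ligand genes (upper row) and 5 receptor genes (lower row) on the 3 Arid1a d/d arrays (red) and the 3 Arid1a f/f arrays (blue), with marker shape for the replicate number and bars for the mean ± SD. For Tek, Kdr and Nrp2 every Arid1a d/d array lies below every Arid1a f/f array, and for the other 7 genes the groups overlap. That order was found at 11.5% of all probe sets.

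Tek encodes the receptor tyrosine kinase TIE2, found chiefly on endothelial cells. Its only probe set, 1418788_at, had intensities of 25.5, 12.6 and 20.3 in Arid1a d/d mice, against 43.2, 39.9 and 46.7 in Arid1a f/f mice. The groups did not overlap, and the lowest value was that of Arid1a d/d replicate 2. The means were 19.5 ± 6.53 (SD, n = 3) in Arid1a d/d mice and 43.2 ± 3.42 (SD, n = 3) in Arid1a f/f mice, with a log2 fold change of -1.21 (limma, standard error 0.23, adjusted p = 0.0231) and a ratio of intensities of 0.432 (95% interval 0.303 to 0.618). Without Arid1a d/d replicate 2 the log2 fold change was -0.92 (adjusted p = 0.0206, limma). The call was lost without Arid1a d/d replicate 3 (adjusted p = 0.0556, limma) and without Arid1a f/f replicate 1, 2 or 3 (adjusted p = 0.0767, 0.0769 and 0.0892, limma), with log2 fold changes of -1.27 to -1.15.

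Kdr, whose product is the receptor tyrosine kinase that carries most VEGFA signalling in endothelial cells, also had 1 probe set, 1449379_at. Its intensities were 30.3, 34.4 and 28.2 in Arid1a d/d mice, against 44.0, 47.9 and 39.5 in Arid1a f/f mice. Each Arid1a d/d array was below each Arid1a f/f array. The means were 30.9 ± 3.13 (SD, n = 3) in Arid1a d/d mice and 43.8 ± 4.17 (SD, n = 3) in Arid1a f/f mice, a log2 fold change of -0.50 (limma, standard error 0.12, adjusted p = 0.0484) and a ratio of 0.706 (95% interval 0.587 to 0.850). This value lay close to the threshold, and the call was lost on leaving out any single array of the 6 (log2 fold change -0.58 to -0.43, adjusted p = 0.0586 to 0.164, limma), under quantile normalization (adjusted p = 0.0557, limma) and when probe sets that may detect several transcripts were left out of the fit (adjusted p = 0.0550, limma).

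Flt1 encodes the tight-binding VEGF receptor, which is also made in a soluble form that holds VEGFA away from KDR, and its 4 probe sets gave unlike results. The brightest, 1451756_at, had intensities of 13.7, 10.8 and 10.2 in Arid1a d/d mice, against 15.8, 18.6 and 9.06 in Arid1a f/f mice. The groups overlapped because Arid1a f/f replicate 3 was the lowest of the 6 arrays (log2 fold change -0.28, standard error 0.25, adjusted p = 0.637, limma). Probe set 1419300_at had intensities of 7.96, 7.11 and 6.88 in Arid1a d/d mice, against 13.7, 10.9 and 9.57 in Arid1a f/f mice. It fell without overlap (log2 fold change -0.63, standard error 0.14, adjusted p = 0.0428, limma), and leaving out any single array of the 6 ended the call (adjusted p = 0.0523 to 0.122, limma). Probe set 1440926_at, with 4.30, 4.30 and 3.94 in Arid1a d/d mice against 6.13, 5.01 and 4.92 in Arid1a f/f mice, also had no overlap but missed the threshold (log2 fold change -0.35, adjusted p = 0.137, limma). The dim probe set 1454037_a_at averaged 2.04 in Arid1a d/d mice and 2.07 in Arid1a f/f mice (log2 fold change -0.02). Which Flt1 transcript each probe set detects, membrane or soluble, was not determined here.

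Because the genes of these 3 receptors had a probe set that fell, the sequences at their starts are shown, from 250 bases before to 50 bases after the start (RefSeq, GRCm38.p6). Capitals mark each match to AGGAA on either strand, written TTCCT where the match is on the other strand, which is the core that ETS factors bind, a family with several members in endothelial cells. Tek lies on the plus strand at chr4:94739039-94739338, Kdr on the minus strand at chr5:75978406-75978705 and Flt1 on the minus strand at chr5:147725962-147726261.
Tek: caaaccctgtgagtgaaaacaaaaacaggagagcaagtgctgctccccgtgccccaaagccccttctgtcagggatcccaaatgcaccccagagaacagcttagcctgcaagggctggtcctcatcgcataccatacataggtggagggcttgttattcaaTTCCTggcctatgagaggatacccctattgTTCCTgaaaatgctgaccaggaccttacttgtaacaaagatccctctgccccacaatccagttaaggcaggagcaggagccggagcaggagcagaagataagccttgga
Kdr: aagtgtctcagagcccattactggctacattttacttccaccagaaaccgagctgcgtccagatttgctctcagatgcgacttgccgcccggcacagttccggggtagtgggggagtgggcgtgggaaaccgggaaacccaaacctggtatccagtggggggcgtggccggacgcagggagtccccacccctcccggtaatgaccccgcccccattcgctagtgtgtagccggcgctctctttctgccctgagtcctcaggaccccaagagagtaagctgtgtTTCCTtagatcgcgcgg
Flt1: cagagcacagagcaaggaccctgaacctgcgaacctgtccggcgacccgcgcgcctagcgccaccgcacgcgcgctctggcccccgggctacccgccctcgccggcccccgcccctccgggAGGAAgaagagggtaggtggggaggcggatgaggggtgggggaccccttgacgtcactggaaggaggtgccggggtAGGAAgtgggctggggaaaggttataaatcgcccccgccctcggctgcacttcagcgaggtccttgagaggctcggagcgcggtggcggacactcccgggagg
The Tek window held 2 matches, the Kdr window 1 and the Flt1 window 2, none of them overlapping another. A match was present for all 8 members that the promoter table holds, the 3 VEGF ligands and the 5 receptors, for Vegfa at only 1 of its 2 promoters. Counted by promoter and not by gene, 66.7% of the 32851 promoters of the same length had one as well, so the motif does not set these genes apart. The hypoxia response element core ACGTG, searched on both strands, was found in 19.6% of promoters and, of the 8 members, only in 1 of the 2 Vegfa promoters. Angpt1 and Angpt2 were not matched in the table.

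Neuropilin genes had lower means in Arid1a d/d mice at 7 of their 8 probe sets, and none of the 8 passed the test. Nrp1 encodes the neuropilin that pairs with KDR for VEGFA. Its brightest probe set, 1448943_at, had intensities of 131, 124 and 114 in Arid1a d/d mice, against 130.3, 152 and 170.4 in Arid1a f/f mice (log2 fold change -0.29, standard error 0.12, adjusted p = 0.252, limma). The groups overlapped only through Arid1a d/d replicate 1 and Arid1a f/f replicate 1, which were nearly equal. At 1418084_at the intensities were 58.3, 51.5 and 51.1 in Arid1a d/d mice, against 64.8, 77.9 and 68.7 in Arid1a f/f mice, with no overlap (log2 fold change -0.39, adjusted p = 0.0877, limma). Probe set 1457198_at did not overlap either (log2 fold change -0.31, adjusted p = 0.218, limma), and 1448944_at did (log2 fold change -0.15, adjusted p = 0.673, limma). The 4 probe sets of Nrp1 thus gave log2 fold changes of one sign, between -0.39 and -0.15.

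Nrp2 encodes the neuropilin better known with VEGFC and lymphatic vessels. Its brightest probe set, 1435349_at, had intensities of 26.8, 23.2 and 20.2 in Arid1a d/d mice, against 28.0, 35.6 and 28.1 in Arid1a f/f mice. The groups did not overlap, by a small gap between Arid1a d/d replicate 1 and Arid1a f/f replicate 1 (log2 fold change -0.38, standard error 0.14, adjusted p = 0.185, limma). Probe sets 1456778_at and 1426528_at overlapped between the genotypes (log2 fold changes -0.26 and -0.21, adjusted p = 0.339 and 0.592, limma). The dim probe set 1447343_at averaged 3.03 in Arid1a d/d mice and 2.99 in Arid1a f/f mice (log2 fold change 0.02, adjusted p = 0.971, limma) and was the only receptor probe set with a difference above 0.

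Vegfa, the ligand that KDR and FLT1 share, had a mean of 15.3 ± 1.89 (SD, n = 3) in Arid1a d/d mice and 15.0 ± 3.48 (SD, n = 3) in Arid1a f/f mice at its brightest probe set, 1420909_at. The intensities were 15.9, 16.8 and 13.2 in Arid1a d/d mice, against 11.1, 17.8 and 16.2 in Arid1a f/f mice. All 3 Arid1a d/d values lay within the range of the Arid1a f/f values. The log2 fold change was 0.04 (standard error 0.18, 95% interval -0.37 to 0.45, adjusted p = 0.942, limma), an interval that leaves room for a ratio between 0.775 and 1.37. The other probe set, 1451959_a_at, lay near the median of all intensities, with 3.59, 3.41 and 2.90 in Arid1a d/d mice against 3.11, 3.27 and 2.88 in Arid1a f/f mice, and overlapped as well (log2 fold change 0.09, adjusted p = 0.754, limma).

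Vegfb encodes a ligand of FLT1 and NRP1 that does not bind KDR. At its only probe set, 1451803_a_at, the intensities were 20.04, 15.2 and 16.9 in Arid1a d/d mice, against 15.9, 18.1 and 11.4 in Arid1a f/f mice. The groups overlapped, with a log2 fold change of 0.22 (limma, standard error 0.18, 95% interval -0.19 to 0.62, adjusted p = 0.609). Vegfc encodes a ligand of FLT4 that can also act on KDR and is best known for lymphatic growth. Its brightest probe set, 1439766_x_at, whose suffix marks probes that may bind other transcripts, had intensities of 17.3, 11.0 and 14.1 in Arid1a d/d mice, against 14.5, 15.8 and 11.7 in Arid1a f/f mice (log2 fold change -0.0042, standard error 0.18, adjusted p = 0.995, limma). The Arid1a d/d arrays held both the highest and the lowest value. Of the other probe sets, 1440739_at had 8.44, 5.59 and 6.72 in Arid1a d/d mice, against 9.22, 9.01 and 8.02 in Arid1a f/f mice (log2 fold change -0.36, adjusted p = 0.253, limma), and 1419417_at had a log2 fold change of -0.06 (limma, adjusted p = 0.916). Both overlapped, so none of the 3 Vegfc probe sets separated the genotypes.

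Angpt1, the activating ligand of TEK, had intensities of 6.38, 4.15 and 6.61 in Arid1a d/d mice at 1439066_at, against 6.72, 5.90 and 6.31 in Arid1a f/f mice. Arid1a d/d replicate 2 was lowest, as it was for Tek, and the other 2 Arid1a d/d arrays lay among the Arid1a f/f values (log2 fold change -0.17, standard error 0.17, 95% interval -0.57 to 0.22, adjusted p = 0.691, limma). Angpt2, the context-dependent ligand of TEK, had intensities of 5.22, 5.28 and 4.83 in Arid1a d/d mice at 1448831_at, against 5.47, 5.28 and 5.47 in Arid1a f/f mice. Here the spread was narrow and the groups met at 5.28 (log2 fold change -0.08, standard error 0.09, 95% interval -0.29 to 0.13, adjusted p = 0.727, limma). The second probe set of each gene was dim, at 2.02 in Arid1a d/d mice and 2.05 in Arid1a f/f mice for Angpt1 and at 1.93 in Arid1a d/d mice and 1.99 in Arid1a f/f mice for Angpt2, and had a log2 fold change of -0.02 and -0.04.

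Over probe sets, 3 of the 14 receptor probe sets and 0 of the 10 ligand probe sets passed as lower by limma, and none of the 24 passed as higher, where 2.35% of all probe sets were lower and 2.42% higher. At an unadjusted p under 0.05 (limma), 8 receptor probe sets and 1 ligand probe set passed. The share of all probe sets at that threshold was not taken, so nothing is read from these counts. Every Arid1a d/d array was below every Arid1a f/f array at 7 of the 24 probe sets, all 7 of them receptor probe sets, where 11.5% of all probe sets had that order. A log2 fold change below 0 was found at 13 of 14 receptor probe sets and 7 of 10 ligand probe sets, beside 51.7% of all probe sets. The receptor probe sets ranged from -1.21 to 0.02 with a median of -0.30, and the ligand probe sets from -0.36 to 0.22 with a median of -0.03. The probe sets of 1 gene share their RNA and their gene and are not independent of each other.

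**Figure D2:**
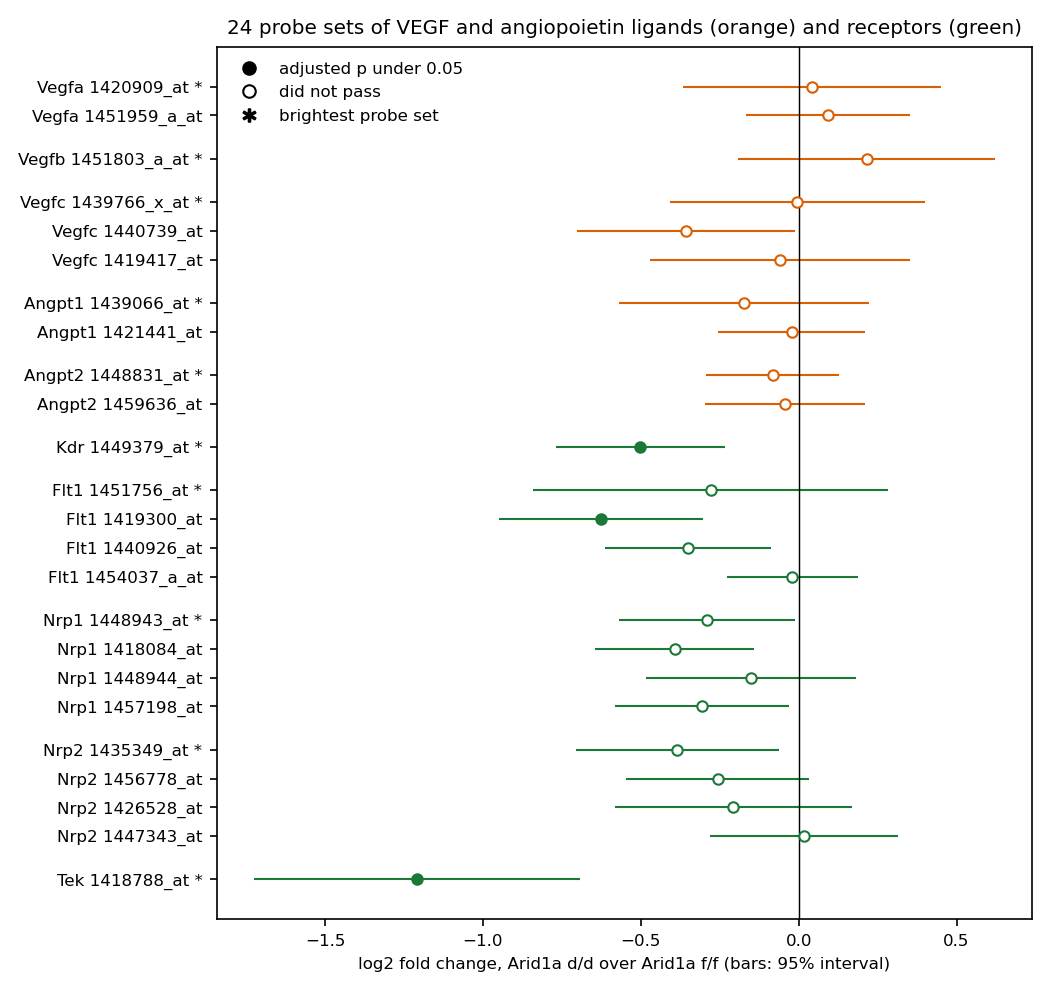
Log2 fold change, Arid1a d/d over Arid1a f/f, of the 24 probe sets with 95% intervals, ligands in orange and receptors in green, where filled points passed limma at an adjusted p under 0.05 and a star marks the brightest probe set of a gene. The 3 filled points belong to Kdr, Flt1 and Tek, and 13 of the 14 receptor points lie below 0.

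To set ligands against receptors within the same RNA, the log2 ratio of a pair of probe sets was taken on each array and expressed relative to its mean over the Arid1a f/f arrays. For all 6 pairs of a ligand with a receptor the mean ratio was higher in Arid1a d/d mice, and in 3 of them the genotypes did not overlap. A further pair set Angpt2 against Angpt1. With 3 arrays against 3, an exact permutation test cannot give a two-sided p under 0.1, so no pair could pass, and a ratio shows that 2 probe sets differed unequally, not which of them did. The pairs share probe sets and are not independent. They restate the member values given above and are no separate evidence, and no share over pairs of other probe sets was taken.

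The pairs with Tek stood farthest apart. Angpt1 over Tek was 0.77, 1.18 and 1.16 on the Arid1a d/d arrays, against 0.09, 0.02 and -0.11 on the Arid1a f/f arrays (difference 1.04 on the log2 scale, exact permutation p = 0.1, adjusted over the 7 pairs p = 0.233). Angpt2 over Tek was 0.71, 1.75 and 0.93 on the Arid1a d/d arrays, against 0.02, 0.08 and -0.10 on the Arid1a f/f arrays (difference 1.13, exact permutation p = 0.1, adjusted p = 0.233). In both pairs the lowest Arid1a d/d array lay well above the highest Arid1a f/f array. Tek is the denominator of both, and Arid1a d/d replicate 2, with the lowest Tek, had the highest ratio. Between the ligands themselves, Angpt2 over Angpt1 differed by 0.09 (exact permutation p = 0.9) and was -0.15 without Arid1a d/d replicate 2.

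Among the VEGF pairs, Vegfa over Kdr was 0.64, 0.53 and 0.46 on the Arid1a d/d arrays, against -0.42, 0.14 and 0.28 on the Arid1a f/f arrays (difference 0.54, exact permutation p = 0.1, adjusted p = 0.233). This was the only one of the 4 VEGF pairs without overlap, with the nearest arrays at 0.46 and 0.28. The differences for Vegfc over Kdr, Vegfa over Nrp1 and Vegfa over Flt1 were 0.50, 0.33 and 0.32 (exact permutation p = 0.3, 0.2 and 0.5), with overlap in each. For Vegfa over Flt1 the difference ranged from 0.02 to 0.70 as single arrays were left out.

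**Figure D3:**
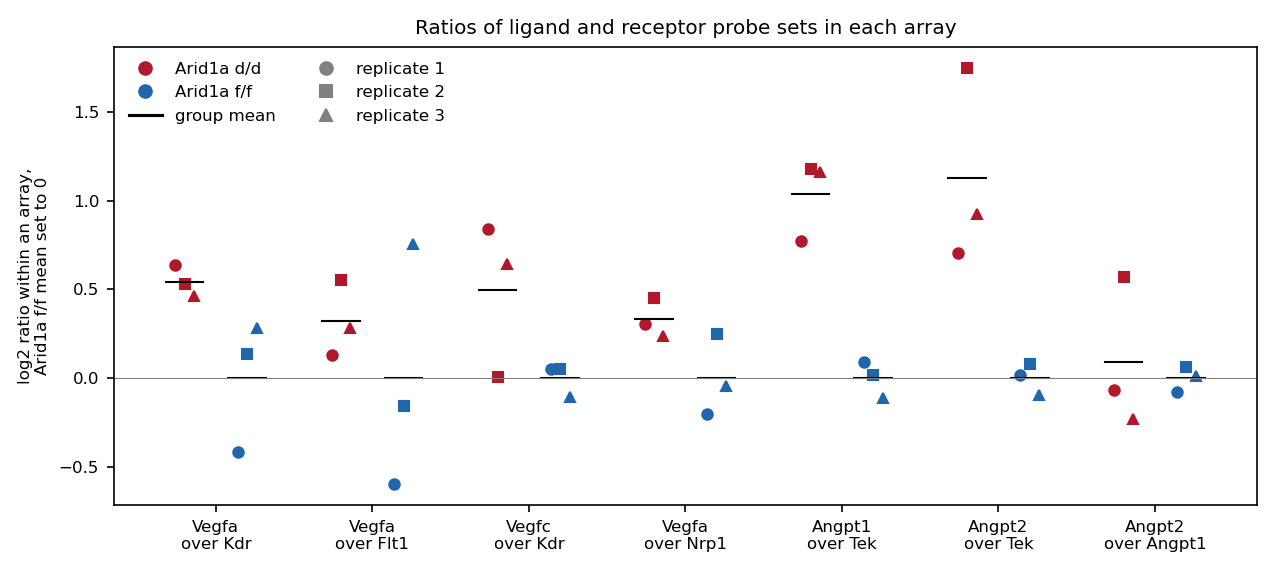
Log2 ratio of a pair of probe sets within each array, for 7 pairs, with the mean of the 3 Arid1a f/f arrays set to 0, Arid1a d/d arrays in red to the left of Arid1a f/f arrays in blue, and lines for the group means. The Arid1a d/d arrays lie above all Arid1a f/f arrays for Vegfa over Kdr, Angpt1 over Tek and Angpt2 over Tek.

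Outside the set, 2 of 3 other ligand genes and 1 of 2 other receptor genes of these families fell in Arid1a d/d mice. Vegfd, which encodes a ligand of FLT4, had intensities of 17.0, 13.9 and 16.3 in Arid1a d/d mice, against 30.02, 34.3 and 34.0 in Arid1a f/f mice (log2 fold change -1.06, standard error 0.11, adjusted p = 0.00332, limma). Its groups lay far apart, and the call held without any 1 array. Pgf, which encodes placental growth factor, a ligand of FLT1, had 4.06, 4.71 and 3.50 in Arid1a d/d mice, against 5.58, 7.74 and 6.44 in Arid1a f/f mice (log2 fold change -0.69, standard error 0.15, adjusted p = 0.0407, limma), and its call was lost without any 1 array except Arid1a d/d replicate 2. The remaining ligand gene, Angpt4, had a log2 fold change of -0.18 (limma, adjusted p = 0.425).

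The receptor gene that fell was Tie1. TIE1 is the partner of TEK and binds no angiopoietin firmly by itself. Its intensities were 4.18, 4.63 and 4.47 in Arid1a d/d mice, against 8.66, 6.83 and 6.36 in Arid1a f/f mice, with no overlap (log2 fold change -0.71, standard error 0.13, adjusted p = 0.0212, limma). The call was lost without Arid1a d/d replicate 1 or 3 (adjusted p = 0.0568 and 0.0592, limma) or Arid1a f/f replicate 2 (adjusted p = 0.0687, limma). Flt4, which encodes the receptor of VEGFC and VEGFD, had 15.0, 11.6 and 13.9 in Arid1a d/d mice, against 17.7, 19.3 and 15.5 in Arid1a f/f mice (log2 fold change -0.38, adjusted p = 0.157, limma). Flt4 also showed no overlap, by a small gap, but missed the threshold.

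Class 3 semaphorins, the other ligands of the neuropilins, and the plexins that signal with them had 1 gene that rose and 2 that fell of 12 measured, with a median log2 fold change of -0.02. Sema3e, whose product binds PLXND1 directly, rose to 4.86, 3.65 and 6.95 in Arid1a d/d mice, against 1.94, 2.34 and 1.84 in Arid1a f/f mice (log2 fold change 1.29, standard error 0.21, adjusted p = 0.0150, limma). Its Arid1a f/f values were below the median of all intensities, so the size of this fold is uncertain, and it was 0.53 on the log2 scale with the probe sets of Sema3e averaged (adjusted p = 0.0295, limma). Sema3g, an endothelial semaphorin, had 9.17, 7.65 and 8.84 in Arid1a d/d mice, against 20.5, 21.9 and 18.3 in Arid1a f/f mice (log2 fold change -1.24, standard error 0.12, adjusted p = 0.00215, limma). Plxnd1, the gene of the SEMA3E receptor, had 21.9, 27.8 and 30.4 in Arid1a d/d mice, against 42.3, 47.0 and 43.9 in Arid1a f/f mice (log2 fold change -0.75, adjusted p = 0.0194, limma). None of these 3 genes overlapped between the genotypes, and Sema3e and Plxnd1, a ligand and its receptor, moved in opposite directions. The call of Sema3e was lost without Arid1a f/f replicate 1 or 3 (adjusted p = 0.0568 and 0.0652, limma), and that of Plxnd1 without Arid1a f/f replicate 1, 2 or 3 (adjusted p = 0.0546, 0.0846 and 0.0709, limma). None of the 4 angiopoietin-like genes measured passed in the comparison of all 6 arrays. Angptl7 had 38.4, 8.87 and 22.1 in Arid1a d/d mice, against 61.5, 55.2 and 85.5 in Arid1a f/f mice (log2 fold change -1.76, adjusted p = 0.0627, limma), and passed without Arid1a d/d replicate 1 (log2 fold change -2.24, adjusted p = 0.0228, limma). Angptl6 had a log2 fold change of 0.28 (limma, adjusted p = 0.276).

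Downstream of the receptors, 3 of 21 measured signal relay genes fell and none rose, with a median of -0.18. By the same rule 4.07% of all genes were called lower and 3.37% higher. Rasip1, which encodes an endothelial Ras and Rap effector needed for vessel lumens, had 3.27, 3.56 and 3.54 in Arid1a d/d mice, against 8.54, 8.56 and 7.58 in Arid1a f/f mice (log2 fold change -1.25, adjusted p = 0.00139, limma). Its Arid1a d/d values lay near the median of all intensities, 3.12, so the size of this fold is uncertain. Nos3, which encodes endothelial nitric oxide synthase, had 8.42, 7.37 and 7.65 in Arid1a d/d mice, against 17.0, 14.9 and 14.7 in Arid1a f/f mice (log2 fold change -0.99, adjusted p = 0.00332, limma). Ptprb, which encodes the endothelial phosphatase that restrains TEK, had 25.4, 17.7 and 19.0 in Arid1a d/d mice, against 34.4, 36.4 and 39.4 in Arid1a f/f mice (log2 fold change -0.84, adjusted p = 0.0170, limma). The call of Ptprb was lost without Arid1a d/d replicate 3 or Arid1a f/f replicate 2 or 3 (adjusted p = 0.0561 to 0.0714, limma) and when the probe sets of a gene were averaged (adjusted p = 0.0859, limma). Of 15 genes known to be raised by VEGF or high in sprouting endothelium, 2 fell and none rose, with a median of -0.19. Aplnr, which encodes the apelin receptor, averaged 174 ± 27.9 in Arid1a d/d mice and 484 ± 53.0 in Arid1a f/f mice (SD, n = 3 each), with a log2 fold change of -1.48 (limma, adjusted p = 0.00257). Plvap, a diaphragm protein of permeable vessels, averaged 36.1 ± 5.86 in Arid1a d/d mice and 55.1 ± 1.96 in Arid1a f/f mice (SD, n = 3 each), with a log2 fold change of -0.62 (limma, adjusted p = 0.0338). The call of Plvap was lost without any 1 array except Arid1a d/d replicate 1 (adjusted p = 0.0638 to 0.113, limma). Esm1, Dll4, Apln, Cxcr4 and the other 9 genes of that list gave no call.

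Markers of the cell types that the uterus holds were measured in the same RNA, where 4.07% of all genes were called lower and 3.37% higher. All 16 endothelial markers had log2 fold changes below 0, 13 of them past the test. The Arid1a d/d arrays had a summed intensity of these markers of 570 to 725, against 1106 to 1173 for Arid1a f/f, and no marker was below 4.86 on any array. The mean log2 intensity of the list was 4.60, 4.35 and 4.63 on the Arid1a d/d arrays, against 5.42, 5.51 and 5.51 on the Arid1a f/f arrays, so that Arid1a d/d replicate 2 was lowest here as it was for Tek. Vwf, Cdh5, Pecam1 and Esam, which encode proteins of endothelial storage granules and cell contacts, had log2 fold changes of -1.46, -1.45, -1.33 and -1.32, and of these calls only that of Pecam1 was lost without a single array (Arid1a f/f replicate 3, adjusted p = 0.0508, limma). With the probe sets of a gene averaged, Cdh5 was at -0.83 (adjusted p = 0.00466, limma) and 12 endothelial markers fell. Without probe sets that may detect several transcripts, 9 of the endothelial markers that remained fell. Of 8 mural cell markers, which mark pericytes and the cells that make ANGPT1, 2 fell, Rgs5 (log2 fold change -1.78) and Notch3 (-0.81), with a median of -0.43. Notch3 lost its call when probe sets that may detect several transcripts were left out (adjusted p = 0.0930, limma). The summed intensity of the mural markers was 677 to 765 in Arid1a d/d mice and 1455 to 1767 in Arid1a f/f mice, of which Rgs5 alone made up 259.7 to 324 in Arid1a d/d mice and 916 to 1207 in Arid1a f/f mice.

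Of 12 epithelial markers measured, 2 rose, Wnt7a (log2 fold change 1.07) and Cdh1 (0.92), with a median of 0.81 (0.43 without Arid1a d/d replicate 2) and a summed intensity of 1245 to 2498 in Arid1a d/d mice, highest on replicate 2, and 1175 to 1259 in Arid1a f/f mice. Of 11 stromal markers 2 fell, Dcn (log2 fold change -1.06) and Thy1 (-0.89), of 8 smooth muscle markers 1 fell, Des (-0.64), and of 8 leukocyte markers 2 fell, Cd52 (-1.20) and Ptprc (-0.80). Their summed intensities were 7817 to 9335 in Arid1a d/d mice and 9997 to 11200.3 in Arid1a f/f mice for stroma, 5777 to 6840 in Arid1a d/d mice and 6268 to 7130 in Arid1a f/f mice for smooth muscle, and 324 to 399 in Arid1a d/d mice and 476 to 754 in Arid1a f/f mice for leukocytes. Median log2 fold changes were -0.32 for stroma, -0.15 for smooth muscle and -0.60 for leukocytes. Values below 0 were found for 10 of 11 stromal, 6 of 8 smooth muscle and 7 of 8 leukocyte markers. The highest leukocyte value was 0.41. Among the 12 epithelial markers 2 lay below 0, the lowest at -0.39. The call of Cdh1 was lost without Arid1a f/f replicate 2, that of Wnt7a without Arid1a d/d replicate 1 or any Arid1a f/f array, that of Dcn without replicate 2 of either genotype, that of Thy1 without Arid1a d/d replicate 2 or Arid1a f/f replicate 1 or 2, that of Cd52 without Arid1a d/d replicate 1 or 2 or Arid1a f/f replicate 2 or 3, and those of Des and Ptprc without any array but Arid1a d/d replicate 1. With the probe sets of a gene averaged, the log2 fold change was 0.27 for Wnt7a (adjusted p = 0.155, limma), -0.15 for Des (adjusted p = 0.379, limma) and -0.41 for Ptprc (adjusted p = 0.0751, limma), and without probe sets that may detect several transcripts Ptprc was at -0.02 (adjusted p = 0.965, limma). The part of these differences in the values of the ligands and receptors was not tested.

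**Figure D4:**
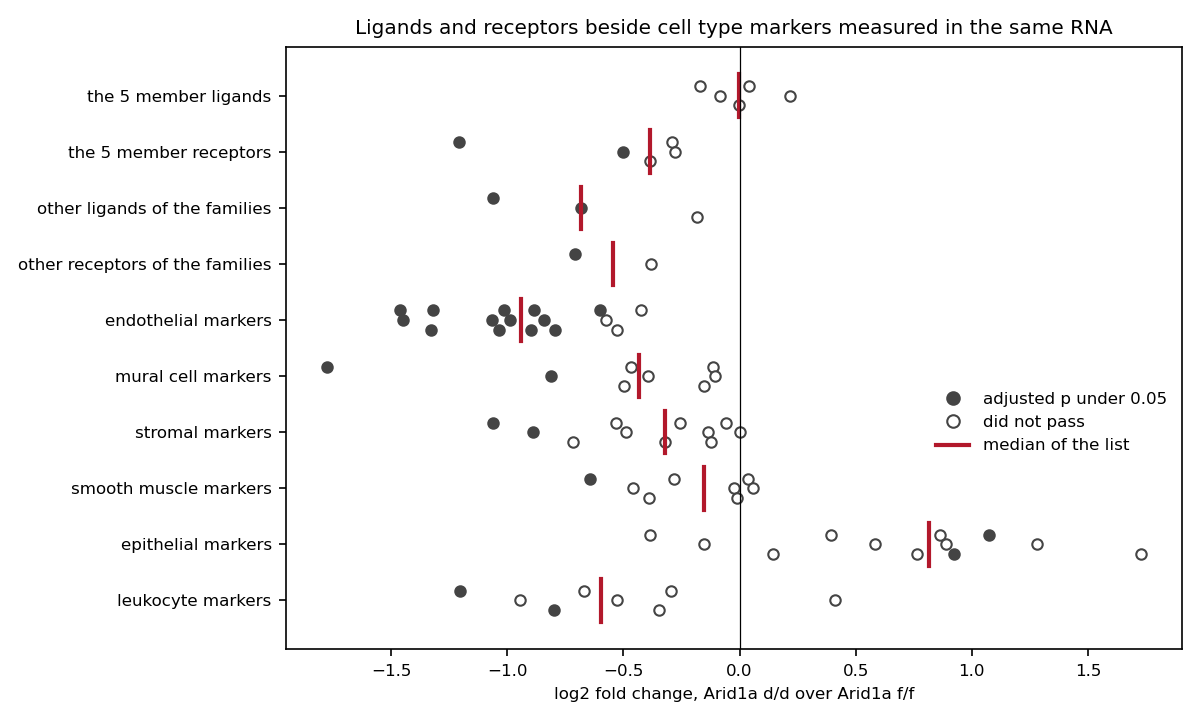
Log2 fold change, Arid1a d/d over Arid1a f/f, of the brightest probe set of each gene in 10 lists, where filled points passed limma at an adjusted p under 0.05 and the red line is the list median. The medians were -0.0042 for the 5 ligands, -0.38 for the 5 receptors, -0.94 for the endothelial markers and 0.81 for the epithelial markers.

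Set against the mean log2 intensity of the endothelial markers on the same array, 9 of the 10 member genes were higher in Arid1a d/d mice by limma, where 97.6% of all probe sets were called in one direction or the other, so the calls say nothing particular of the members. The sizes differ between them. Tek was the exception, with a log2 difference of -0.26 relative to the endothelial markers (adjusted p = 0.175, limma), so that its decrease was not distinguished from theirs, except without Arid1a d/d replicate 1, when it was larger (log2 difference -0.45, adjusted p = 0.0235, limma). The other receptors were at 0.45 for Kdr, 0.57 for Nrp2, 0.66 for Nrp1 and 0.67 for Flt1, with a median of 0.57 over the 5 receptor genes. The calls of Kdr and Flt1 were lost without Arid1a d/d replicate 2 (adjusted p = 0.0665 and 0.0546, limma) and without Arid1a f/f replicate 3 (adjusted p = 0.0782 and 0.0846, limma), when Flt1 was at 0.35, and that of Kdr also with the median of the markers in place of their mean (adjusted p = 0.0738, limma). The ligands ran from 0.78 for Angpt1 to 1.17 for Vegfb, with a median of 0.95. Each of these values is the log2 fold change given above, shifted by the same amount for every member. Their order and spacing restate the member values and are no separate evidence.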

How the data were processed

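Biotinylated cRNA from total uterine RNA was hybridised to Affymetrix mouse arrays. The authors' deposited intensity values come from RMA (no version in the submitters' processing notes) followed by global scaling to a trimmed mean. The deposited intensity values are linear, so log2 was taken, as the design had foreseen for linear values. Of 45037 probe sets, 34945 name 1 gene, 932 several and 9160 none, and 0 symbols needed updating against the gene table of GRCm38.p6. The genotype contrast used limma 3.58.1 under R 4.3.3, as a two-sided lmFit and eBayes test with no filter and adjusted over all probe sets by Benjamini-Hochberg and was tested on simulated data beforehand. Ratios were compared with exact permutation tests (scipy 1.17.1), adjusted over 7 pairs. A gene was counted by its probe set with the highest mean. All members were named, and of each list at most 4 genes past the test with the largest change, or 2 where none passed; Angpt4, Flt4 and the genes listed as giving no call are named outside this rule. The members and lists were chosen with earlier results of these data known. Alternatives were a replicate block, quantile normalization, median centring, the methods' t-test, a trended robust eBayes, array weights, leaving out dim probe sets, other probe sets per gene and leaving out each array. The files name no genome build, so promoter coordinates are those of the RefSeq table. Precision is limited by the number of arrays.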

Additional observations from a re-analysis of the deposited data

How the results depend on the processing

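The count of member genes that fell was 2 and of member probe sets 3, and without single arrays these were 0 to 1 and 0 to 1. Over all probe sets the fit called 1057 lower and 1090 higher, and 337 to 878 lower and 241 to 941 higher without single arrays. Among the member genes, Kdr alone lost its call under quantile normalization and without probe sets that may detect several transcripts, which left 1 gene in each case. The methods' t-test after Benjamini-Hochberg gave 0 member genes, 0 member probe sets and 0 calls over all probe sets. No member gene was higher in Arid1a d/d mice under any alternative of that fit. Relative to the endothelial markers, the 9 member genes called became 8 with the median of the markers, 9 with the replicate block and 7 to 10 without single arrays. The 13 endothelial markers that fell became 7 to 11 without single arrays, with 7 without Arid1a f/f replicate 3. They became 9 without probe sets that may detect several transcripts and 12 with probe sets averaged. Among member genes, the signs that turned were those of Vegfa, Vegfc and Angpt1. Vegfc was 0.0021 after median centring. Without single arrays, Vegfa ranged from -0.16 (without Arid1a f/f replicate 1) to 0.18 and was -0.03 without Arid1a d/d replicate 2, Vegfc ranged from -0.16 to 0.16 (without Arid1a d/d replicate 2) and was 0.03 and 0.09 when Arid1a f/f replicate 1 or 2 was absent, while Angpt1 ranged from -0.29 to 0.043 (without Arid1a d/d replicate 2). The log2 ratio of Angpt2 over Angpt1 ranged from -0.15 (without Arid1a d/d replicate 2) to 0.25. Of the other member probe sets, Nrp2 1447343_at was -0.08 and -0.06 without Arid1a d/d replicate 1 and Arid1a f/f replicate 2, Flt1 1454037_a_at was 0.0016 without Arid1a d/d replicate 3, and Vegfc 1419417_at, Angpt1 1421441_at and Angpt2 1459636_at also turned without an array. The medians of the semaphorin and plexin, oxygen sensing, low oxygen and lymphatic lists lay near 0 and turned under some alternatives, and that of the signal relays was -0.06 with probe sets averaged. Without probe sets that may detect several transcripts, Vegfc was counted by another probe set (-0.36) and Vegfb had none. The cause of these changes was not tested. The replicate numbers of the labels were checked as pairs. Same-numbered arrays had correlations of -0.0036, 0.05 and 0.14 of their deviations from the group means. Arid1a d/d replicates 2 and 3 correlated best with the Arid1a f/f array of the same number, and Arid1a d/d replicate 1 with Arid1a f/f replicate 2 (0.06). These few small correlations cannot tell whether same-numbered arrays are pairs. With the replicate number as a block, 2 member genes fell, Angptl7 passed (adjusted p = 0.0291, limma), and 1039 probe sets were lower and 1126 higher. A tally covered the member genes, as such and relative to the endothelial markers, and the counts of the lists other than the endothelial markers. In it 329 values kept their direction and side of the threshold, 41 moved, 19 calls were lost, 1 was gained and 7 signs turned. The other named genes, several of which also lost their calls, are not in this tally.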

Other observations

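Genes of oxygen sensing, which act upstream of Vegfa, were measured as well. Of 9 such genes 1 fell, where 4.07% of all genes were called lower. The gene was Epas1, which encodes the hypoxia-inducible factor prominent in endothelial cells. It had intensities of 218, 185 and 173 in Arid1a d/d mice, against 298, 287 and 327 in Arid1a f/f mice (log2 fold change -0.67, standard error 0.12, adjusted p = 0.0181, limma), and the call was lost without Arid1a d/d replicate 2 or 3 or any 1 Arid1a f/f array, while with probe sets averaged the log2 fold change was -0.42 (adjusted p = 0.0210, limma). Hif1a, named outside the rule, encodes the other main alpha subunit and had a log2 fold change of 0.04 (limma, adjusted p = 0.883). Of 10 genes known to be raised by low oxygen 1 fell, Ndrg1, with 51.9, 38.5 and 44.0 in Arid1a d/d mice, against 84.2, 117 and 132 in Arid1a f/f mice (log2 fold change -1.29, adjusted p = 0.00824, limma). The median log2 fold change was -0.06 over the sensing genes and 0.04 over the targets, beside -0.019 over all genes, and both turned sign under some alternatives (0.05 over the sensing genes without Arid1a d/d replicate 1, and -0.11 over the targets without probe sets that may detect several transcripts).

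Lymphatic vessels, on which VEGFC and VEGFD act, were followed by 5 markers. Pdpn alone fell, with 28.8, 25.9 and 29.4 in Arid1a d/d mice, against 63.8, 96.1 and 63.7 in Arid1a f/f mice (log2 fold change -1.39, adjusted p = 0.00468, limma). Pdpn is also expressed by cells other than lymphatic endothelium. The other markers gave no call, and over all genes 4.07% were called lower. Lyve1, Prox1 and Mmrn1 had log2 fold changes of 0.83, 0.17 and 0.02 (adjusted p = 0.126, 0.626 and 0.958, limma), and Reln of -0.46 (adjusted p = 0.216, limma). Prox1 was dim. The median of the 5 was 0.02, and -0.22 without dim probe sets.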
